A study of Mus musculus with 22 samples.

Results

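Megalin, cubilin and 4 proteins that work with them in receptor-mediated endocytosis by the proximal tubule were followed at the messenger RNA level in mouse kidney cortex. The 6 genes, Lrp2 (megalin), Cubn (cubilin), Amn, Dab2, Clcn5 and Ocrl, were picked by gene symbol from the 16556 genes of the deposited table. All 6 passed the filter on low counts, as did 15064 genes in total. The study deleted Crat, the gene of the mitochondrial enzyme carnitine acetyltransferase, with loxP sites and a Cre recombinase under the Ggt promoter. That promoter is active in proximal tubular cells, while the tissue sequenced was whole cortex, so other cells contributed RNA. All animals were male C57BL/6J mice. The control groups carried the floxed gene without Cre and are labelled fl/fl, and the deleted groups are labelled Pt-CrAT. There were 3 libraries of each genotype at 12 months of age with LFD in the title, 3 of each at 15 months with chow in the title, and 5 of each at 24 months with chow in the title. The labels do not spell out LFD, and it changes together with age, so the 12-month animals were not tested against the older ones. A library is called by its title, which starts with Wt for fl/fl and with CrAT for Pt-CrAT. The labels tell nothing of litters, cages or days, and p-values measure the spread between these libraries.

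Megalin and cubilin are the receptors that take filtered proteins, vitamin carriers and hormones out of the tubular fluid. Megalin spans the membrane, whereas cubilin has no membrane span of its own and reaches the apical surface only in a complex with amnionless, the product of Amn. Dab2 binds the cytoplasmic tail of megalin and links the receptors to the clathrin coat. ClC-5, the product of Clcn5, is a chloride/proton exchanger that supports acidification of endosomes, and OCRL, the product of Ocrl, is a phosphoinositide 5-phosphatase of the same pathway. Loss of either of the last pair in people causes low-molecular-weight proteinuria, in Dent disease and Lowe syndrome.

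Coordinates are those of GENCODE M21 on GRCm38. Lrp2 (ENSMUSG00000027070) occupies chromosome 2, 69424340 to 69586065, on the minus strand. Cubn (ENSMUSG00000026726) occupies chromosome 2, 13276338 to 13491813, on the minus strand. Amn (ENSMUSG00000021278) is the shortest, at chromosome 12, 111271095 to 111276426, on the plus strand. Dab2 (ENSMUSG00000022150) lies on chromosome 15, 6299788 to 6440712, plus strand. Clcn5 (ENSMUSG00000004317) lies on chromosome X, 7153810 to 7319358, minus strand, and Ocrl (ENSMUSG00000001173) on chromosome X, 47912387 to 47965868, plus strand. The longest coding transcripts run from 1.7 kb for Amn to 15.5 kb for Lrp2. A library here holds tags from near the 3' end of each transcript, so a count does not grow with transcript length in the way that whole-transcript reads do, and levels are compared within a gene and not between genes. Cubn overlaps the antisense gene Gm13270, and Crat overlaps the protein-coding gene Dolpp1 on the opposite strand. Reads from the overlap of either pair cannot be told apart unless counting used strand, which is not given in the sources used here.

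The bases just upstream of the annotated starts of the receptor genes and of Amn are shown because Lrp2 and Cubn varied together between libraries, and no such correlation was detected for Amn. They are RefSeq sequence on GRCm38.p6, read 5' to 3' on the strand of the gene and ending at the GENCODE start for Lrp2 and Amn, and for Cubn at a RefSeq start 63 bases upstream of the GENCODE one: Lrp2 from chr2:69586066-69586279 (minus), Cubn from chr2:13491877-13492126 (minus) and Amn from chr12:111270846-111271094 (plus). Capitals mark the only searched motif found in these 3 windows.
Lrp2: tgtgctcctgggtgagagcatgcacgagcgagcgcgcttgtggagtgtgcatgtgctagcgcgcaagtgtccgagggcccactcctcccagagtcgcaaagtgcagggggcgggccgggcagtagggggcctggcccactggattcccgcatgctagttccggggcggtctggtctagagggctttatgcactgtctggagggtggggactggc
Cubn: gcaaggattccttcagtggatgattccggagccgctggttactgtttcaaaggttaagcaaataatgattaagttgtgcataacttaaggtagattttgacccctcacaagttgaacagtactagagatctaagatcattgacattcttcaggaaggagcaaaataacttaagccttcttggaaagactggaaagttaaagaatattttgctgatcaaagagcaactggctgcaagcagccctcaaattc
Amn: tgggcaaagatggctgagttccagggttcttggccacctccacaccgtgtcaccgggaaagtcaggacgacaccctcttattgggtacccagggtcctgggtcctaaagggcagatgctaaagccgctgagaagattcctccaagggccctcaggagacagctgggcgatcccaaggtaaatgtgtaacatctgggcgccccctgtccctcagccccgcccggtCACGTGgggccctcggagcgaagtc
The Lrp2 stretch is 65.9% G and C with 13 CpG dinucleotides in 214 bases, the Cubn stretch 39.6% with 2 in 250 bases, and the Amn stretch 61.0% with 11 in 249 bases. Windows of 250 bases upstream of RefSeq starts were searched on both strands for 3 motifs that do not overlap one another in these windows: an HNF4-like core (CAAAGTCC), an E-box (CACGTG) and a TATA box (TATAAA). Of 32851 such windows in the genome, 1.20%, 6.02% and 12.4% hold them in this order. Amn has the E-box, which begins 25 bases before the start at which its stretch ends. Clcn5 has the TATA box 172 bases before its second RefSeq start and Ocrl the HNF4-like core 180 bases before its RefSeq start. None of the 3 was found for Lrp2, Cubn or Dab2, which says only that these letters are not in those windows.

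Total counts ran from 12175804 to 17447367 per library, with CrAT12MLFD345 at 53157575. Behind each value of Lrp2 stood 7171 to 60976 counts and behind Ocrl at least 71, the lowest count of the genes followed. Even so, at 12 months the SE of the log2 fold change was larger for Cubn (0.309) than for Ocrl (0.296). Levels are CPM, counts scaled to library size with TMM factors. The mean of Crat itself ran against the labels at 15 months, at 45.3 ± 13.3 CPM for fl/fl and 69.1 ± 5.27 CPM for the libraries labelled Pt-CrAT (SD, n = 3 each). At 24 months it followed them, at 74.7 ± 24.4 and 36.2 ± 4.41 CPM (SD, n = 5 each), and at 12 months the groups overlapped, at 78.9 ± 22.5 and 62.5 ± 19.4 CPM (SD, n = 3 each). None of these differences passed in edgeR. The log2 fold changes were 0.61 at 15 months (adjusted p = 0.581), -1.04 at 24 months (adjusted p = 0.177) and -0.33 at 12 months (adjusted p = 0.410). At 15 months all 3 libraries labelled Pt-CrAT lay above all 3 of fl/fl, as they did for 11.6% of all genes. Whether the difference of Crat varied among the 3 settings was a separate edgeR test, which it passed (adjusted p = 0.0319), as 5.07% of all genes did. Which exons were deleted is not given, and a tag outside them would not report the deletion. Some libraries stood apart. Wt12MLFD326 ranked 1 of 22 for Lrp2, Cubn, Dab2 and Ocrl and 22 of 22 for Clcn5. CrAT24Mchow123 and CrAT24Mchow136 held 4565 and 2853 CPM of the proximal tubule transcript Kap, against 18928 to 28807 CPM in the other 3 of that group. Results that rest on these libraries are given with and without them. All 18 markers of proximal tubule segments S1 and S2, in which this machinery is most abundant, had counts in every library.

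**Figure D1:**
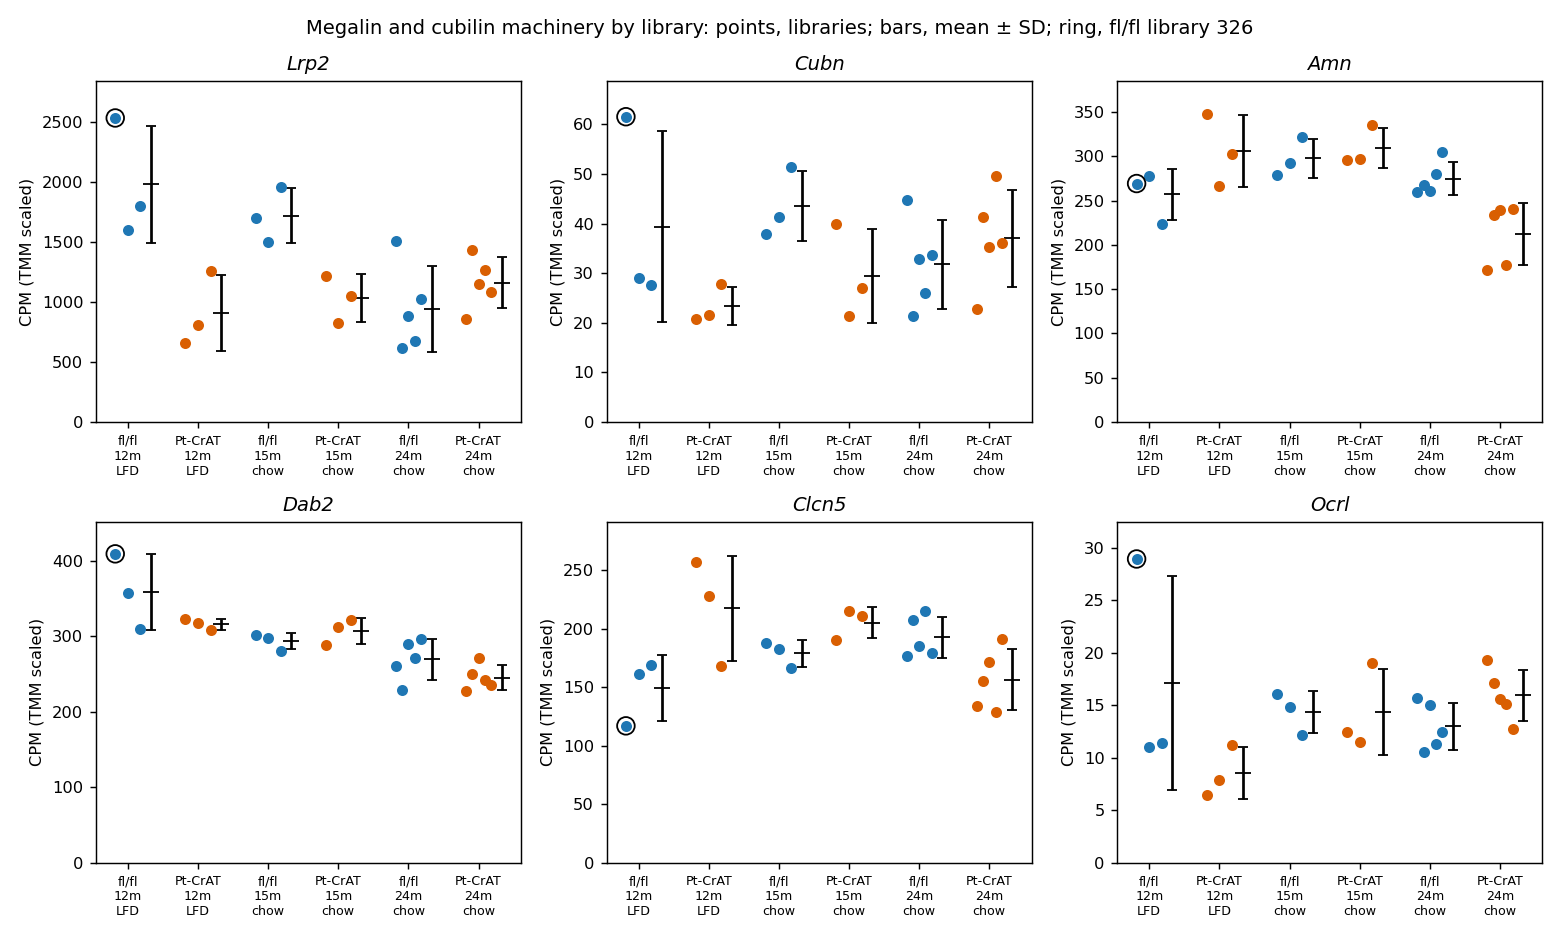
Level of each of the 6 genes (TMM-scaled CPM, linear axis from 0) in the 22 libraries, by genotype and setting (blue, fl/fl; orange, Pt-CrAT). Points are libraries, black bars mean ± SD of the group, and the ring marks Wt12MLFD326, which is the highest point for Lrp2, Cubn, Dab2 and Ocrl and the lowest for Clcn5.

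At 12 months the 6 genes did not move as a block. Lrp2 and the phosphatase gene Ocrl were lower in Pt-CrAT, the exchanger gene Clcn5 was higher, and Cubn, Amn and Dab2 did not pass. In this comparison edgeR called 16.4% of all 15064 genes (8.41% higher and 7.95% lower), so 3 of 6 called members stand against a broad background of calls. Each of the 3 calls was lost when Wt12MLFD326, CrAT12MLFD328 or CrAT12MLFD337 was left out, as given gene by gene below.

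Lrp2, the megalin gene, stood at 2534, 1603 and 1802 CPM in Wt12MLFD326, Wt12MLFD327 and Wt12MLFD368, and at 655, 809.5 and 1258 CPM in CrAT12MLFD328, CrAT12MLFD337 and CrAT12MLFD345. All 3 Pt-CrAT libraries lay below all 3 fl/fl libraries, as the groups of 30.1% of all genes also did not overlap (13.8% with Pt-CrAT lower). The means were 1979 ± 490.1 and 907 ± 313 CPM (SD, n = 3 each), a log2 fold change of -1.12 (SE 0.285, adjusted p = 0.0155 by edgeR's quasi-likelihood test). Without Wt12MLFD326 the fold change was -0.91 (adjusted p = 0.0994), without CrAT12MLFD328 it was -0.92 (adjusted p = 0.120) and without CrAT12MLFD337 it was -1.04 (adjusted p = 0.0827). Lrp2 kept its sign whichever of the 6 libraries was omitted, over a range of -1.42 to -0.91. With Wt12MLFD326 and CrAT12MLFD328 both left out, an alternative chosen after the data were seen, it stood at -0.71 (adjusted p = 0.398). DESeq2 called Lrp2 with all libraries (-1.13, adjusted p = 0.00204) and without Wt12MLFD326 (-0.89, adjusted p = 0.0391). In bulk cortex, fewer cells of a type and less RNA per cell cannot be told apart. The summed level of 18 S1 and S2 markers ran from 20187 to 33993 CPM among fl/fl and from 27954 to 30908 CPM among Pt-CrAT libraries, with Wt12MLFD326 lowest although its Lrp2 was highest. Of the marker lists of other cells, those of podocytes and of the distal convoluted and connecting tubule were lower in Pt-CrAT without overlap. In the remaining lists the groups overlapped. The 6 podocyte markers summed to 274 to 347 CPM in fl/fl and 206 to 270.5 CPM in Pt-CrAT, highest in Wt12MLFD326 and lowest in CrAT12MLFD328, as was Lrp2 among these 6 libraries. The 6 markers of the distal convoluted and connecting tubule summed to 595 to 636 and 482 to 579 CPM. The part of these markers in the result was not tested.

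Cubn, the cubilin gene, followed Lrp2 in direction without passing. It stood at 61.6, 29.1 and 27.5 CPM in Wt12MLFD326, Wt12MLFD327 and Wt12MLFD368 and at 20.7, 21.6 and 27.9 CPM in CrAT12MLFD328, CrAT12MLFD337 and CrAT12MLFD345. Wt12MLFD326 alone was far above the rest, and CrAT12MLFD345 reached the lower fl/fl values, so the groups overlapped. The log2 fold change was -0.74 (SE 0.309, adjusted p = 0.0965). Without Wt12MLFD326 it shrank to -0.27 (adjusted p = 0.652), while without Wt12MLFD368 it passed (-0.93, adjusted p = 0.0486). Amn, whose product carries cubilin to the surface, went the other way in sign, with a mean of 257 ± 28.8 CPM for fl/fl and of 305 ± 40.7 CPM for Pt-CrAT (SD, n = 3 each; 0.25, SE 0.148, adjusted p = 0.243). Its highest value of all 22 libraries was 348 CPM in CrAT12MLFD328.

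Dab2, the adaptor of megalin, differed little at 12 months: 409, 358 and 309 CPM in Wt12MLFD326, Wt12MLFD327 and Wt12MLFD368, and 323, 317 and 308 CPM in CrAT12MLFD328, CrAT12MLFD337 and CrAT12MLFD345. The Pt-CrAT values lay close together, within the spread of fl/fl except for CrAT12MLFD345 (log2 fold change -0.18, SE 0.125, adjusted p = 0.318). Macrophages also express Dab2, and the summed level of 10 macrophage markers ran from 221 to 934 CPM among fl/fl and from 626 to 946 CPM among Pt-CrAT libraries. Wt12MLFD326 had the lowest macrophage sum of these 6 libraries and the highest Dab2. The part of macrophages in the Dab2 values was not tested.

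Clcn5, the endosomal chloride/proton exchanger gene, rose at 12 months. It stood at 117, 162 and 169 CPM in Wt12MLFD326, Wt12MLFD327 and Wt12MLFD368 and at 257, 228 and 169 CPM in CrAT12MLFD328, CrAT12MLFD337 and CrAT12MLFD345. CrAT12MLFD328 and CrAT12MLFD337 were above all fl/fl libraries, while CrAT12MLFD345 lay just below Wt12MLFD368. The log2 fold change was 0.54 (SE 0.169, adjusted p = 0.0336). It was 0.40 without Wt12MLFD326 (adjusted p = 0.193), 0.42 without CrAT12MLFD328 (adjusted p = 0.184) and 0.52 without CrAT12MLFD337 (adjusted p = 0.114). With Wt12MLFD326 and CrAT12MLFD328 both left out it was 0.27 (adjusted p = 0.571).

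Ocrl, the phosphatase gene, was lower in Pt-CrAT by a difference that came mainly from 1 fl/fl library. It stood at 28.9, 11.02 and 11.4 CPM in Wt12MLFD326, Wt12MLFD327 and Wt12MLFD368, and at 6.48, 7.89 and 11.2 CPM in CrAT12MLFD328, CrAT12MLFD337 and CrAT12MLFD345. Wt12MLFD326 held more Ocrl than any other of the 22, and without it the fl/fl and Pt-CrAT values came close and overlapped. The log2 fold change was -0.97 with all libraries (SE 0.296, adjusted p = 0.0317) and -0.36 without Wt12MLFD326 (adjusted p = 0.418). It was -0.80 without CrAT12MLFD328 (adjusted p = 0.167) and -0.90 without CrAT12MLFD337 (adjusted p = 0.120). Limma voom with quality weights gave -0.54 (adjusted p = 0.0754).

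**Figure D2:**
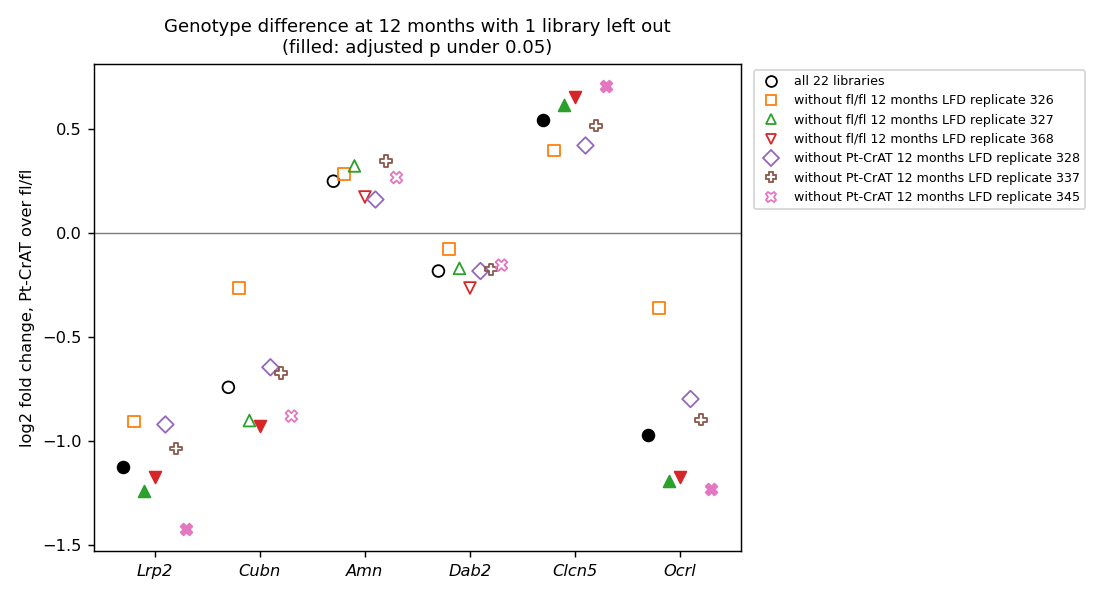
Log2 fold change of each gene at 12 months (Pt-CrAT over fl/fl, y axis) with all 22 libraries and after omitting each of the 6 libraries of this setting. Filled symbols passed an adjusted p of 0.05 and open ones did not: the orange squares, without Wt12MLFD326, sit nearest 0 for Cubn (-0.27) and Ocrl (-0.36), and no symbol changes sign.

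At 15 months no member passed, nor did any of the 15064 genes (0% called by edgeR at an adjusted p under 0.05; 1249 genes, or 8.29%, had an unadjusted p under 0.05; DESeq2 called 0 and limma voom 1). Directions are those of the labels. The Crat means ran against them here, with groups that did not overlap, though the difference did not pass. Lrp2 stood at 1697, 1503 and 1959 CPM in Wt15Mchow205, Wt15Mchow225 and Wt15Mchow227 and at 1219, 824 and 1049 CPM in CrAT15Mchow183, CrAT15Mchow185 and CrAT15Mchow204, which are labelled Pt-CrAT. The groups did not overlap, which held for 24.3% of all genes (12.7% with the latter lower). The log2 fold change was -0.74 (SE 0.283, unadjusted p = 0.0158, adjusted p = 0.581). Cubn had the same sign, at 37.9, 41.4 and 51.5 CPM against 39.9, 21.4 and 27.0 CPM, and overlapped through CrAT15Mchow183 (-0.57, SE 0.308, adjusted p = 0.581). Clcn5 did not overlap either, at 166 to 188 CPM for fl/fl and 190.1 to 215 CPM for the libraries labelled Pt-CrAT, where 11.6% of all genes were higher in this way (0.20, SE 0.169, adjusted p = 0.665). Amn (0.06, adjusted p = 0.904), Dab2 (0.06, adjusted p = 0.861) and Ocrl (-0.00, adjusted p = 0.997) were near 0, and the signs of Amn and Ocrl changed with a library left out (-0.02 to 0.11 and -0.28 to 0.12).

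At 24 months the signs of Lrp2, Cubn, Amn, Clcn5 and Ocrl were opposite to those at 12 months, and no member passed (0% of all genes called by edgeR; 9.35%, or 1409 genes, at an unadjusted p under 0.05; DESeq2 called 8 genes and limma voom 3, with no member among them). Lrp2 had a median of 884 CPM in fl/fl (618 to 1511) and of 1154 CPM in Pt-CrAT (859.7 to 1436). The ranges overlapped, and Wt24Mchow145, at 1511 CPM, was higher than any Pt-CrAT library (0.30, SE 0.218, adjusted p = 0.642). Cubn had a log2 fold change of 0.22 (SE 0.238, adjusted p = 0.763), and Ocrl of 0.30 (SE 0.227, adjusted p = 0.659). Amn was the gene whose groups did not overlap. It stood at 259, 268, 261, 280.3 and 305 CPM in Wt24Mchow145, Wt24Mchow154, Wt24Mchow164, Wt24Mchow165 and Wt24Mchow168, and at 172, 234, 239, 177 and 241 CPM in CrAT24Mchow123, CrAT24Mchow124, CrAT24Mchow135, CrAT24Mchow136 and CrAT24Mchow146. All 5 Pt-CrAT libraries were lower, where 1.53% of all genes did not overlap and 0.797% were lower in this way. The log2 fold change was -0.37 (SE 0.115, unadjusted p = 0.0037, adjusted p = 0.461), so Amn did not pass over all genes. CrAT24Mchow123 and CrAT24Mchow136 were the lowest, and without both, chosen after the data were seen, the value was -0.22 (adjusted p = 0.982). Clcn5 stood at 193 ± 17.5 and 156 ± 26.2 CPM (SD, n = 5 each; -0.30, SE 0.131, adjusted p = 0.491), again with CrAT24Mchow123 and CrAT24Mchow136 lowest, at 134 and 129 CPM. Dab2 was at -0.13 (SE 0.0973, adjusted p = 0.642). In these 2 libraries the summed S1 and S2 markers stood at 14746 and 12109 CPM, against 17274 to 21307 CPM in fl/fl, and 11 collecting duct markers at 1414 and 1456 CPM, against 669 to 1141 CPM in fl/fl. Their part in the Amn and Clcn5 values was not tested.

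**Figure D3:**
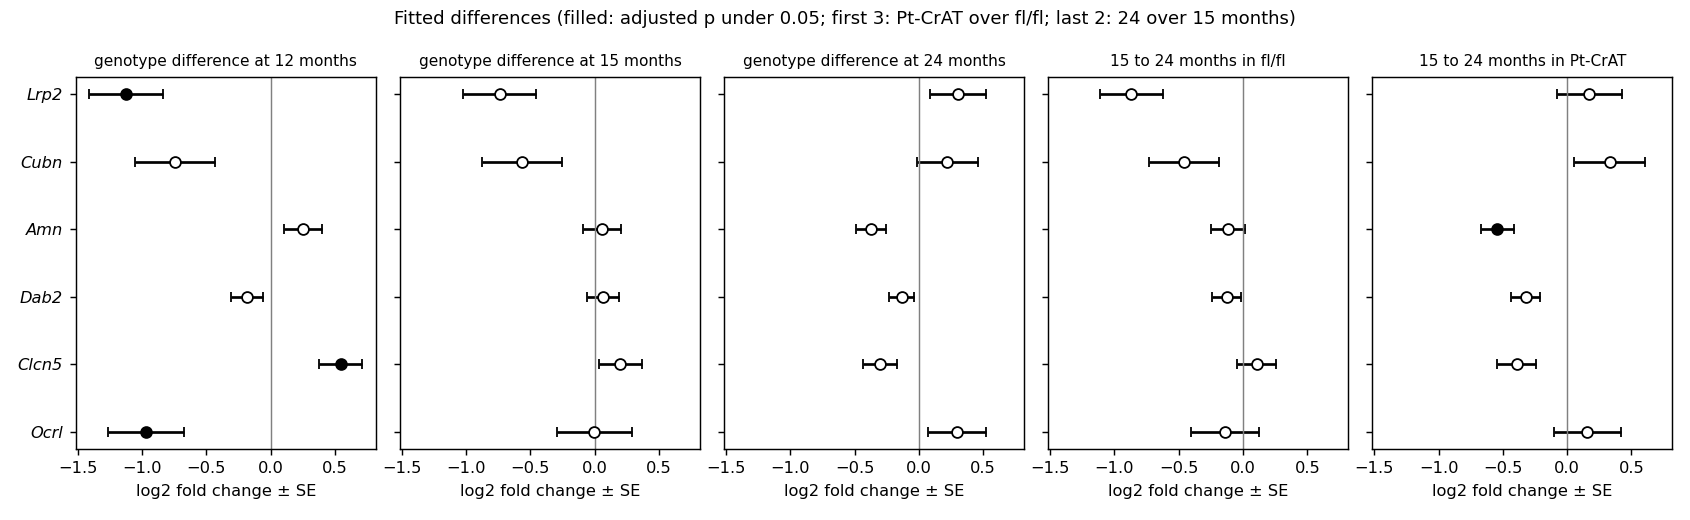
Log2 fold change ± SE of the 6 genes in 5 comparisons (x axis; the first 3 panels are Pt-CrAT over fl/fl at 12, 15 and 24 months, the last 2 are 24 over 15 months within a genotype). Filled points passed an adjusted p of 0.05: Lrp2, Clcn5 and Ocrl at 12 months, and Amn from 15 to 24 months in Pt-CrAT.

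Whether the genotype difference itself varied among the 3 settings was tested by edgeR with 2 degrees of freedom. Lrp2 (adjusted p = 0.0400) and Clcn5 (adjusted p = 0.0453) passed, where 5.07% of all genes did. Lrp2 went from -1.12 through -0.74 to 0.30, and Clcn5 from 0.54 through 0.20 to -0.30. Amn (0.0716), Ocrl (0.0757), Cubn (0.150) and Dab2 (0.513) did not pass in edgeR, while DESeq2 called Amn (adjusted p = 0.0261) and Ocrl (0.0327) as well. The settings differ in age, in the diet word and possibly in cohort, which cannot be told apart. With 1 library left out the adjusted p of Lrp2 ranged from 0.0128 to 0.124 and that of Clcn5 from 0.0139 to 0.145, and with Wt12MLFD326 and CrAT12MLFD328 both out they were 0.179 and 0.192. The change of the genotype difference from 15 to 24 months alone passed for no gene in edgeR (0% of all genes; 2255 genes, or 15%, at an unadjusted p under 0.05; DESeq2 called 23 and limma voom 386). Lrp2 had the largest value of the 6 there, 1.04 (SE 0.357, adjusted p = 0.290), and limma voom called it (1.11, adjusted p = 0.0410).

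Between 15 and 24 months Amn fell in Pt-CrAT, and Dab2 and Clcn5 had lower values without passing in edgeR. Amn went from 296, 297 and 335 CPM in CrAT15Mchow183, CrAT15Mchow185 and CrAT15Mchow204 to the 172 to 241 CPM given above. All 5 older libraries lay below all 3 younger ones, as they did for 11.3% of all genes (21.8% did not overlap in either direction, 10.5% with the older higher). The means were 309 ± 22.1 (SD, n = 3) and 212 ± 35.0 CPM (SD, n = 5), a log2 fold change of -0.54 (SE 0.131, adjusted p = 0.0112), in a comparison that called 11.3% of all genes (5.71% lower). Without CrAT15Mchow204 the value was -0.47 (adjusted p = 0.0878), and without CrAT24Mchow123 and CrAT24Mchow136 together -0.39 (adjusted p = 0.0976). The call held after omitting each of the other 7 libraries. Dab2 also separated the ages, at 288 to 321 CPM and 227.3 to 271 CPM (-0.32, SE 0.111, adjusted p = 0.0605), and both DESeq2 (adjusted p = 0.0211) and limma voom (0.0159) called it. Clcn5 was at -0.39 (SE 0.149, adjusted p = 0.0901), and limma voom called it (-0.33, adjusted p = 0.0456) while DESeq2 did not (adjusted p = 0.0753). The receptors had small positive values, Lrp2 0.17 (SE 0.253, adjusted p = 0.706) and Cubn 0.33 (SE 0.278, adjusted p = 0.470), and Ocrl stood at 0.16 (adjusted p = 0.743). The 15-month libraries of this comparison are the ones whose mean Crat ran against their label without passing. Crat itself fell here by 0.93 on the log2 scale (edgeR adjusted p = 0.0165).

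In fl/fl the same interval showed the lower values in Lrp2. It stood at 1503 to 1959 CPM at 15 months and at 618 to 1022 CPM in 4 of the 5 libraries at 24 months, with Wt24Mchow145 at 1511 CPM within the younger range. The log2 fold change was -0.87 (SE 0.247, unadjusted p = 0.0019, adjusted p = 0.0703), in a comparison that called 1.3% of all genes and left the groups of 17% without overlap. DESeq2 (-0.88, adjusted p = 0.0224) and limma voom (-0.85, adjusted p = 0.00602) called Lrp2, as did edgeR without Wt24Mchow145 (-1.12, adjusted p = 0.0169). In edgeR it did not pass with any of the other 7 libraries omitted, with the value as near 0 as -0.75 and the adjusted p as high as 0.284 (without Wt15Mchow227). Cubn was at -0.46 (adjusted p = 0.323), and Amn (-0.12), Dab2 (-0.13), Clcn5 (0.11) and Ocrl (-0.14) had adjusted p-values of 0.518 to 0.781. The summed S1 and S2 markers were also lower at 24 months in fl/fl, at 17274 to 21307 CPM against 21475 to 24615 CPM at 15 months. Their part in the Lrp2 value was not tested.

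Over the 6 groups, Lrp2 was highest in fl/fl at 12 months (1979 ± 490.1 CPM) and fl/fl at 15 months (1719 ± 229 CPM). Pt-CrAT at 24 months (1161 ± 214 CPM), Pt-CrAT at 15 months (1031 ± 199 CPM), fl/fl at 24 months (942 ± 357 CPM) and Pt-CrAT at 12 months (907 ± 313 CPM) followed. In this order only the step from 1719 to 1161 CPM was larger than the SD of both neighbours. The order of Cubn was 43.6 ± 7.04 CPM in fl/fl at 15 months, 39.4 ± 19.2 in fl/fl at 12 months, 37.1 ± 9.77 in Pt-CrAT at 24 months, 31.8 ± 8.89 in fl/fl at 24 months, 29.5 ± 9.46 in Pt-CrAT at 15 months and 23.4 ± 3.90 in Pt-CrAT at 12 months, with no step larger than both SDs. Both receptors thus had their lowest mean in Pt-CrAT at 12 months.

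The other genes had other orders. Amn was highest in Pt-CrAT at 15 and 12 months and fl/fl at 15 months (309 ± 22.1, 305 ± 40.7 and 298 ± 21.9 CPM). It was at 275 ± 18.6 CPM in fl/fl at 24 months, 257 ± 28.8 CPM in fl/fl at 12 months and 212 ± 35.0 CPM in Pt-CrAT at 24 months, and the steps from 298 to 275 and from 257 to 212 exceeded both SDs. Dab2 went down in the order fl/fl and Pt-CrAT at 12 months (359 ± 50.01 and 316 ± 7.24 CPM), Pt-CrAT and fl/fl at 15 months (307 ± 17.0 and 294 ± 11.2 CPM), and fl/fl and Pt-CrAT at 24 months (269 ± 26.6 and 245 ± 16.9 CPM), with no step past both SDs. Clcn5 was highest in Pt-CrAT at 12 months (218 ± 45.0 CPM) and 15 months (205.3 ± 13.3 CPM), then at 193 ± 17.5 CPM in fl/fl at 24 months and 179 ± 11.3 CPM in fl/fl at 15 months. Its lowest means were 156 ± 26.2 CPM in Pt-CrAT at 24 months and 149 ± 28.1 CPM in fl/fl at 12 months, again with no step past both SDs. Ocrl stood between 13.002 ± 2.24 and 17.1 ± 10.2 CPM in 5 groups and at 8.54 ± 2.45 CPM in Pt-CrAT at 12 months, the 1 step past both SDs. These are SDs over 3 libraries at 12 and 15 months and 5 at 24 months. The highest library held 4.10 times the lowest for Lrp2 and 4.46 times for Ocrl. For Cubn this ratio was 2.97, for Clcn5 2.19, for Amn 2.02 and for Dab2 1.80.

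The receptor genes varied together between libraries. Over the 22 libraries, with group means taken off, the log2 CPM of Lrp2 and Cubn had a Pearson r of 0.86 and a Spearman rho of 0.88 (permutation test, adjusted over 15 pairs, p = 0.00015 and 3e-04; the unadjusted p of r, 1e-05, is the smallest these permutations can give). Pooled without that step, r was 0.79 and rho 0.79 (permutation adjusted p = 3e-04 and 0.00045). Without the 2 libraries farthest from the median of Lrp2, r was 0.87 within groups and 0.70 pooled. It passed after omission of any of the 22 libraries, both pooled and within groups. Such a correlation was not rare in these libraries: among 9949 genes with a mean of at least 5 CPM, Cubn ranked 263 by its r with Lrp2. The 5 closest to Lrp2 within groups were Rsrp1 (r = 0.975), Glyr1 (0.975), Fkbp2 (0.966), Cox7c (0.961) and Uchl3 (0.960). Each of these 5 was highest in Wt12MLFD326, and without it Glyr1, Rsrp1, Mrpl44, Gk and Fkbp2 were closest. The 5 closest to Cubn were Cct4 (0.961), Ptprg (0.950), Cers6 (0.948), Srp14 (0.946) and Rrs1 (0.940), and those closest to Dab2 were Cenpv (0.864), Trpc4ap (0.861), Cdk6 (0.798), Asb7 (0.793) and Trim32 (0.791). All of these were also highest in Wt12MLFD326. Without it, Ap1s3, Uqcrfs1, Sdhc, Cct4 and Coa5 were closest to Cubn. Cenpv, Trpc4ap, Esd, Slc16a6 and Zfp513 were then closest to Dab2. These likenesses are descriptions over 22 libraries, and their cause was not tested.

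For Amn and the receptor its product carries, no such correlation was detected. Within groups its r with Cubn was 0.17 (rho 0.16, permutation adjusted p = 0.648) and with Lrp2 0.08 (rho 0.07, adjusted p = 0.762), and pooled they were -0.12 and -0.06. Without the 2 libraries farthest from the median of Cubn, its r with Amn was -0.06 within groups. The difference between these correlations and that of the receptor genes was not tested. Clcn5 ran opposite to Lrp2, with r = -0.61 and rho -0.64 within groups (permutation adjusted p = 0.0460 and 0.0308) and r = -0.65 pooled. It also ran opposite to Ocrl, with r = -0.69 and rho -0.69 within groups (adjusted p = 0.0460 and 0.0308) and r = -0.72 pooled. Without the 2 libraries farthest from the median of Lrp2 in 1 pair and of Clcn5 in the other, the within-group r was -0.53 with Lrp2 and -0.52 with Ocrl. Of the 22 omissions of a library, the pair with Lrp2 passed within groups in 4 and the pair with Ocrl in 7, and without Wt12MLFD326 the adjusted p was 0.185 for each. By r, 3 of 15 pairs passed within groups and 8 pooled. The pooled ones were these 3 and Lrp2 with Ocrl (0.54), Cubn with Clcn5 (-0.64), Cubn with Ocrl (0.61), Amn with Dab2 (0.55) and Amn with Clcn5 (0.62). Amn with Dab2 and with Clcn5 stood at 0.34 and 0.39 pooled without CrAT24Mchow123 and CrAT24Mchow136. Lrp2 with Ocrl stood at 0.35 pooled without Wt12MLFD326 and Wt24Mchow154. Cubn with Clcn5 and with Ocrl stood at -0.45 and 0.38 pooled without Wt12MLFD326 and CrAT12MLFD328. By pooled rho, Lrp2 with Ocrl (permutation adjusted p = 0.124) and Amn with Clcn5 (permutation adjusted p = 0.0750) did not pass.

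**Figure D4:**
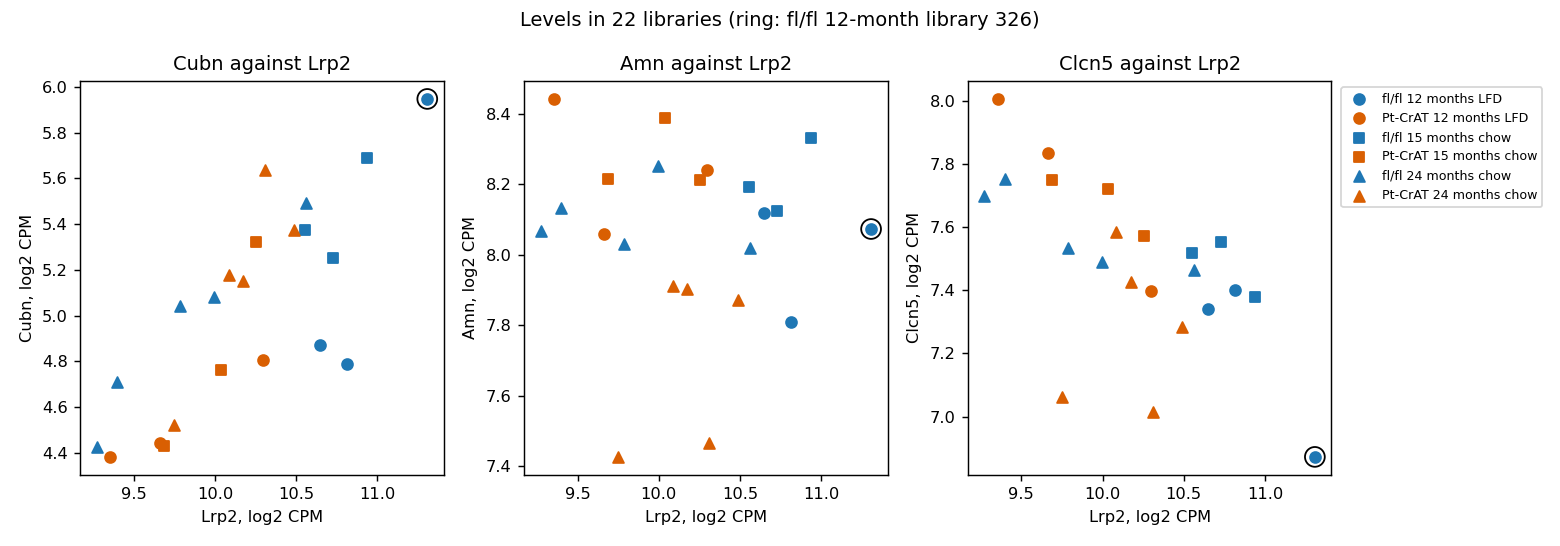
Log2 CPM of Cubn, Amn and Clcn5 (y axes) against Lrp2 (x axis) in the 22 libraries, coloured by genotype and shaped by setting, with Wt12MLFD326 ringed. Cubn rises with Lrp2 (pooled r = 0.79), Amn had an r of -0.06 and Clcn5 falls (-0.65).

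The wider pathway was read from 7 lists of partner genes, of which 93 genes were tested. At 12 months 9 of the 93 were called higher and 9 lower, or 19.4%, near the 16.4% of all genes. No partner kept its call without Wt12MLFD326, and none without CrAT12MLFD328. Without CrAT12MLFD337 only Myo6 did. Calls among all genes ranged from 53 to 3513 with 1 library left out. DESeq2 without Wt12MLFD326 called 8 of the 93 partners and 956 of all genes. Among 10 adaptors and chaperones of megalin, 3 rose and 1 fell (median log2 fold change 0.06, against 0.00 for all genes). Myo6, the motor that moves endocytic vesicles inward, went from 706 ± 162 to 1182 ± 188 CPM (SD, n = 3 each; 0.74, SE 0.171, adjusted p = 0.0102). Snx17, a sorting nexin that binds the megalin tail, was at 0.54 (adjusted p = 0.0457). Inpp5b, the closest relative of Ocrl, had the sign of Ocrl, at -0.81 (adjusted p = 0.0350). The chaperone genes Lrpap1 and Mesd were not called.

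Further along the route at 12 months, 2 of 18 clathrin coat genes were called, the AP-2 subunit gene Ap2a2 (0.47) and the epsin gene Epn2 (-0.65). Of 17 early endosome and recycling genes 3 rose and 2 fell (median 0.07). The Rab5 effector genes Eea1 (0.56) and Rabep1 (0.44) were higher and the Rab genes Rab5b (-0.87) and Rab11a (-0.66) lower. Another Rab gene, Rab5c, was higher, at 797 ± 112 and 1115 ± 180 CPM (SD, n = 3 each; 0.48, adjusted p = 0.0451), so the Rab genes did not move one way. Of 21 acidification genes, the proton pump subunit gene Atp6v0b rose (0.55) and Atp6v1h fell (-1.37). Lysosomal genes were mixed, with 1 of 12 higher and 4 lower (median -0.28). The protease gene Ctsd rose from 1184 ± 344.96 to 1948 ± 245 CPM (SD, n = 3 each; 0.72, adjusted p = 0.0153). Ctsl (-0.99), Tpp1 (-0.77), Lgmn (-1.54) and Lamp2 (-0.54) fell. None of 10 genes of other receptors and ligand handling and none of 5 transcription factors passed. Hnf4a, which encodes a factor of proximal tubule genes, was at -0.56 (adjusted p = 0.0559).

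At 15 and at 24 months no partner gene passed between the genotypes. At 24 months Lrpap1, the chaperone of megalin, had a mean of 398 ± 21.5 CPM for fl/fl and of 297 ± 66.3 CPM for Pt-CrAT (SD, n = 5 each; -0.43, SE 0.133, adjusted p = 0.461). Tcn2, which carries vitamin B12 to its receptors, was at -0.66 (adjusted p = 0.461).

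From 15 to 24 months in Pt-CrAT, 3 of the 93 partner genes rose and 19 fell, or 23.7%, against 11.3% of all genes (5.61% higher and 5.71% lower). The count was 5 without CrAT15Mchow185, 6 without CrAT15Mchow204, and 7 without CrAT24Mchow123 and CrAT24Mchow136 together. Lrpap1, Eps15, Rab5c and Folr1 were called in all of these 3 settings. Calls among all genes also went down, from 1705 to 417 without CrAT24Mchow123 and CrAT24Mchow136. They ranged from 393 to 1777 with 1 library left out. Lrpap1 fell from 484 ± 21.7 (SD, n = 3) to 297 ± 66.3 CPM (SD, n = 5; -0.71, SE 0.151, adjusted p = 0.0056), the same direction as Amn. Ankra2, whose product binds the megalin tail, was the other of 10 adaptor genes called (-0.40). Of 18 clathrin coat genes, 2 fell, Eps15 (-0.52, adjusted p = 0.00309) and the clathrin light chain gene Cltb (-0.56). Of 17 endosome genes, 3 fell, Rab5c (-0.86), Rab7 (-0.54) and Ehd1 (-0.54), and the recycling gene Ehd4 rose (0.69). Of 12 lysosomal genes 5 fell and none rose, namely Ctsa (-0.70), Ctsh (-0.66), Lamp1 (-0.53), Ctsd (-0.55) and Ctsz (-0.48).

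Receptors for other filtered ligands held 2 genes that rose and 4 that fell of 10 in that comparison. Folr1, the folate receptor, fell from 384 ± 62.3 (SD, n = 3) to 197 ± 40.5 CPM (SD, n = 5; -0.97, SE 0.169, adjusted p = 0.0019). Tcn2 (-0.97), the vitamin D receptor gene Vdr (-0.57) and Fcgrt (-0.51) fell as well, and Lrp1, a relative of megalin expressed in many cell types, rose (0.96). Of 21 acidification genes 2 fell, Atp6v1c1 (-0.41) and Atp6v0d1 (-0.48), while 19 of the 21 had negative values (median -0.25, against 0.04 for all genes). In fl/fl over the same ages 19 of 21 also had negative values (median -0.28, against 0.02 for all genes), none passing. In that genotype Eps15 was the 1 partner gene of 93 that passed (-0.47, SE 0.0998, adjusted p = 0.0217), and its call was lost after omitting any of the 3 libraries at 15 months, Wt24Mchow154 or Wt24Mchow164. Whether these genes changed differently in the 2 genotypes was tested as the genotype difference between ages, where none passed. The 10 S3 markers of Pt-CrAT summed to 33729 to 39124 CPM at 15 months and to 4879 to 30753 CPM at 24 months. Most of that sum was the single gene Kap, at 31431 to 37096 CPM and 2853 to 28807 CPM, so it tells little of the other S3 markers. The summed S1 and S2 markers went from 24466 to 28576 CPM to 12109 to 18273 CPM. Their part in the lower partner values was not tested.

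**Figure D5:**
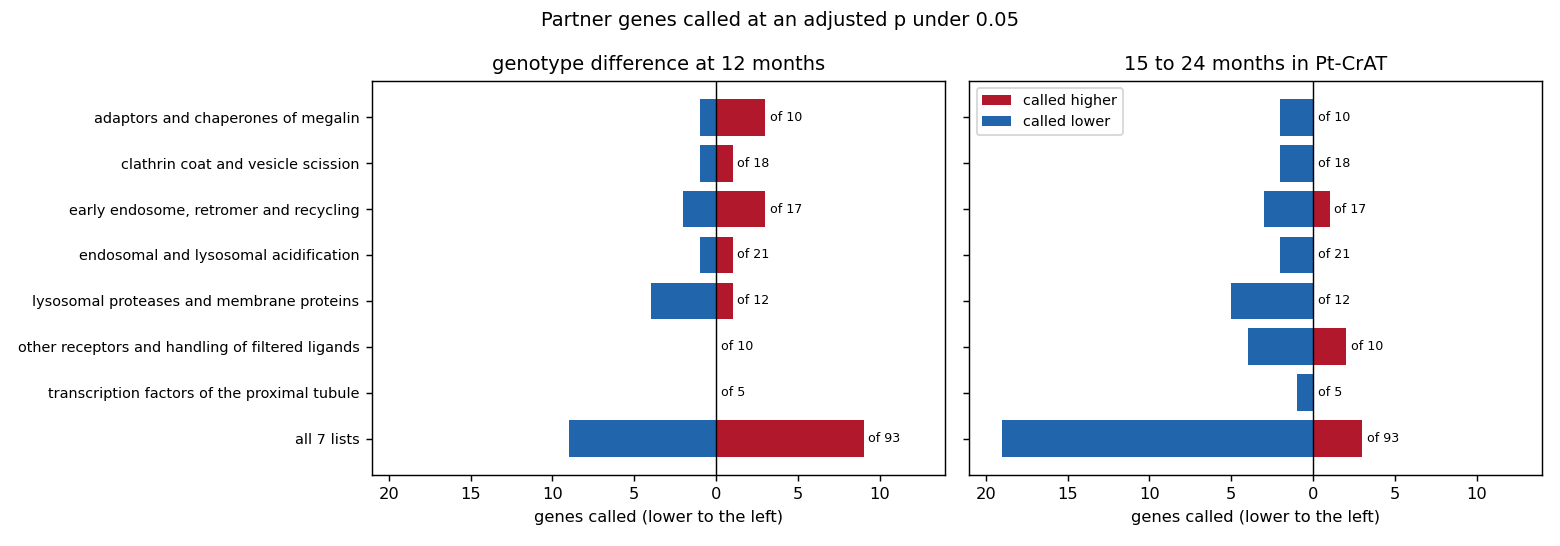
Number of partner genes called higher (red, to the right of 0) or lower (blue, to the left) at an adjusted p under 0.05 in each list, out of the number tested printed beside the bar. At 12 months the calls are even, 9 and 9 of 93, and from 15 to 24 months in Pt-CrAT 19 of the 22 calls are lower.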

How the data were processed

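RNA of kidney cortex, extracted with TRIzol, was made into libraries with the Lexogen QuantSeq 3' FWD kit, per the labels' protocols. The authors deposited whole-number read counts per gene, not normalized. The submitters' processing notes name GRCm38, DESeq2 1.18.1 and R 3.4.3. An aligner, a counter, a strand setting and an annotation are not given in the sources used for this text. The authors also deposited a normalized signal, equal to the counts divided by DESeq2 size factors recomputed here, which served only to pair identifiers with symbols. Genes with few reads were absent (smallest total 66).

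A single edgeR 4.0.16 model (R 4.3.3) held all 22 libraries in 6 groups, with TMM scaling, filterByExpr and the robust quasi-likelihood F test. P-values were adjusted by Benjamini-Hochberg over 15064 genes and called under 0.05. Standard errors are the fold change divided by the root of F. Correlations used log2 CPM with a prior count of 2 and 100000 two-sided permutations, within groups where stated, adjusted over 15 pairs. Symbols and coordinates came from GENCODE M21, in which 16514 of 16556 identifiers were found. Tests ran on simulated data first. Alternatives were RLE scaling, no filter, DESeq2 1.42.0, limma voom (3.58.1) with quality weights, compared groups only, and each library left out. Omitting 2 libraries together, or Wt12MLFD326 under DESeq2, was chosen after the data were seen. Named partners are up to 4 per list with the smallest p, and the 5 nearest genes by correlation; Rab5c at 12 months, Lamp2, Ctsz and Fcgrt were added after their values were seen, and some genes named by the rule are not reported here. The members and lists were chosen with earlier results of these data known. Without molecular identifiers, reads are not independent molecules, and the spread between libraries sets the precision.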

Additional observations from a re-analysis of the deposited data

Results flagged for a closer look

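The genotype difference of Lrp2 differed among the 3 settings by its own test (edgeR adjusted p = 0.0400), with log2 fold changes of -1.12, -0.74 and 0.30 at 12, 15 and 24 months. The same held for Clcn5 (adjusted p = 0.0453), at 0.54, 0.20 and -0.30. The Lrp2 call was lost in 14 of the alternative settings and kept in 14, and the Clcn5 call was lost in 16 and kept in 12. The losses include omissions of 1 library, and that of Wt12MLFD326 and CrAT12MLFD328 together. The Crat means ran against the labels at 15 months, with groups that did not overlap, though the difference did not pass. No library was marked in any of the 12 groups of 5 libraries in which a member was checked for a single distant value, where chance would mark about 5% of groups. Groups of 3 libraries were not checked, so Wt12MLFD326 was outside this check. A check for a single distant value also does not address CrAT24Mchow123 and CrAT24Mchow136, which stood apart together.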

How the results depend on the processing

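No paired analysis was possible because the numbers in the titles are unique, so no replicate number is shared between groups. Of the recomputed member values, 632 kept their side of the threshold, 50 lost a call and 14 gained one. No called value changed sign, while 6 uncalled ones did, 5 of Ocrl and 1 of Amn, all at 15 months. RLE scaling and dropping the filter changed no call. Counts of genes called moved as follows. At 12 months 2464 became 3913 with voom, 1 with the compared groups only, 53 to 3513 with 1 library left out, 19 without Wt12MLFD326 and CrAT12MLFD328, and 956 in DESeq2 without Wt12MLFD326. Members called, 3, became 0 with the compared groups only, 0 to 4 with 1 library out, 0 without Wt12MLFD326 and CrAT12MLFD328, and 1 in DESeq2 without Wt12MLFD326. At 15 months 0 became 1 (voom) and 4 (compared groups only). At 24 months 0 became 8 (DESeq2), 3 (voom) and 0 to 2 (1 library out). For variation among settings, 764 became 2370 (DESeq2), 3237 (voom), 2 to 2195 (1 library out), 2 (Wt12MLFD326 and CrAT12MLFD328 out) and 1230 (DESeq2 without Wt12MLFD326); members called, 2, became 4 (DESeq2), 0 to 3 (1 library out) and 0 (Wt12MLFD326 and CrAT12MLFD328 out). From 15 to 24 months in fl/fl, 196 became 729 (DESeq2), 2098 (voom) and 3 to 756 (1 library out), and members 0 became 1, 1 and 0 to 1. In Pt-CrAT, 1705 became 2852 (voom), 393 to 1777 (1 library out) and 417 (CrAT24Mchow123 and CrAT24Mchow136 out); members, 1, became 2 (DESeq2), 3 (voom), 0 to 1 (1 library out) and 0 (CrAT24Mchow123 and CrAT24Mchow136 out). For genotype by age, 0 became 23 (DESeq2) and 386 (voom), members 0 became 1 (voom). Pairs of members passing were 6 to 8 pooled and 1 to 5 within groups with 1 library out. The cause of these changes was not tested. A fit of the compared groups only has fewer libraries to estimate the spread, and the part of this in its counts was not tested either. Depth was lowest for Ocrl, at 71 counts in its lowest library.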
